A study of Mus musculus with 12 samples.

Results

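Tyr, Tyrp1, Oca2, Trpm1 and Gpnmb are genes of the pigment cell, the melanocyte. They were taken by symbol, with no threshold on their measured values but with earlier results of these data known, as 5 of the 7902 genes in the deposited mouse skin tables, and all 5 were among the 7638 genes tested. The 12 libraries were made from skin of mice in 3 groups of 4: control mice (Ctrl), mice in which skin ageing was induced with D-galactose together with UVA/B light (Model), and mice of that model that also received NSPCC1 (M+NSPCC1). The labels give no strain, coat colour, age, body site, dose or time. Nor do they say that the 4 libraries of a group are 4 animals; a p-value here measures only the spread between these libraries, part of which may be technical.

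Melanin is made inside melanosomes, organelles of the melanocyte. Tyrosinase, encoded by Tyr, starts the pathway by oxidising tyrosine, and the related protein encoded by Tyrp1 acts later in the synthesis of dark eumelanin. The Oca2 protein sits in the melanosome membrane and is needed for a pH at which tyrosinase works. Trpm1 encodes a cation channel of melanocytes and of retinal bipolar cells. Gpnmb encodes a glycoprotein of melanosomes and lysosomes that is also known from macrophages and osteoclasts. Many melanocyte genes are driven by the transcription factor Mitf, which binds the letters CATGTG or CACGTG, and in mouse hair follicles melanocytes make pigment during the growth phase of the hair cycle.

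Because these letters are the known contact of Mitf, the bases before each gene's start are shown first. They come from RefSeq on GRCm38.p6, the assembly that mm10 stands for, and all 5 genes matched by symbol. In the 250 bases before the start, searched on both strands, CATGTG occurred in 4 of the 5 genes, against 12.3% of 32817 mouse promoters of the same length. The longer TCATGTG, which contains CATGTG, occurred in 3 of the 5 (Tyr, Tyrp1 and Trpm1), against 3.25% of promoters. Of 45 other pigment genes searched in the same way, 9 had CATGTG and 5 had TCATGTG. A gene was counted if any of its annotated starts had the word, while the percentages count single promoters. Each line gives 28 bases, 5′ to 3′ on the strand of the gene, with CATGTG or its complement in capitals.
Tyr, chr7:87493517-87493544, minus strand: aaaaagttagtCATGTGctttgcagaag
Tyrp1, chr4:80834156-80834183, plus strand: ggggagggagtCATGTGctgcctagtag
Trpm1, chr7:64153683-64153710, plus strand: caaatcctcatCATGTGcccaccccaaa
Oca2, chr7:56239562-56239589, plus strand: tgagcttgctaCACATGgctggaatttt
In Tyr the match lay at bases -21 to -16 before the start, in Tyrp1 at -46 to -41, in Trpm1 at -141 to -136 and in Oca2 at -186 to -181, where it reads on the opposite strand. These positions depend on the start used, since the annotated spans of Tyrp1 and Oca2 begin before it. Counted from the beginning of the span, the Oca2 match lay at -20 to -15, and the Tyrp1 match lay inside the span. The longest run shared by the 250 bases of Tyr and of Tyrp1 had 11 bases, AGTCATGTGCT, the element known as the M-box. It was present in 7 (0.0213%) of the 32817 promoters, which include those of Tyr and Tyrp1, and in 0 of the 45 other pigment genes. Because the run was picked from these sequences, its rarity is a description and not a test. A second annotated start of Trpm1 had CACGTG at -229 to -224, a word found in 6.02% of promoters. These are matches of letters, and binding was not measured.

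Gpnmb had neither CATGTG nor CACGTG in this window. Its 250 bases are shown for contrast, chr6:49036268-49036517 on the plus strand, ending at the base before the start.
Gpnmb: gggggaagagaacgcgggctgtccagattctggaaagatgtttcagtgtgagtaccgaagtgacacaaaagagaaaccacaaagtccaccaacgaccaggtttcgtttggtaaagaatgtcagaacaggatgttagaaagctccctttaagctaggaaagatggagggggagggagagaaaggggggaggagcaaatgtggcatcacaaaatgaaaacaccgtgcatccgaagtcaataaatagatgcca
The same stretch of Tyr, chr7:87493513-87493762 on the minus strand, is shown because it holds a match close to the start and the run shared with Tyrp1.
Tyr: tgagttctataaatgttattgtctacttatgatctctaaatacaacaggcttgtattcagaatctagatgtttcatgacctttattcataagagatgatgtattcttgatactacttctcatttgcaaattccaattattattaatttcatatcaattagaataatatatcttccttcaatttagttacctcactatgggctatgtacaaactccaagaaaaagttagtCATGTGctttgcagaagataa

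The summed estimated counts were 9717338 to 10952623 per library, and together the 5 genes took 0.00759% to 0.0118% of them in Ctrl, 0.0807% to 0.232% in Model and 0.144% to 0.213% in M+NSPCC1. The skin of both aged groups differed from Ctrl across most of the table: 90.5% of the genes tested differed between Model and Ctrl (49.1% higher, 41.4% lower), and 93.2% between M+NSPCC1 and Ctrl (50.1% higher, 43.1% lower). These calls come from the quasi-likelihood test of edgeR at a Benjamini-Hochberg adjusted p under 0.05. Between M+NSPCC1 and Model no gene passed it (0%, 502 genes at an unadjusted p under 0.05), while DESeq2 called 74 (0.95%). A call in Model against Ctrl is therefore the usual case in these tables, and the sizes of the differences are given beside the calls. Levels are CPM, a library's counts scaled to a common total, so in these pieces of whole skin fewer melanocytes and less RNA per melanocyte cannot be told apart.

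The genes of the melanin pathway rose steeply in Model skin. Tyr had 1.77, 1.22, 0.107 and 0.648 CPM in Ctrl libraries 01 to 04, 178.4, 222.6, 83.8 and 231.5 CPM in Model, and 144.9, 192.7, 204.7 and 217.2 CPM in M+NSPCC1. All 8 aged libraries stood above all 4 Ctrl libraries, and the lowest of the 8 was Model 03. Tyr was higher in Model than in Ctrl by a log2 fold change of 7.57 ± 0.49 (SE), about 190.4-fold, with an edgeR adjusted p of 1.53e-07.

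Tyrp1 was detected in each Ctrl library. It had 8.07, 9.50, 4.29 and 9.39 CPM in Ctrl, 476.4, 644.1, 227.9 and 629.3 CPM in Model, and 395.4, 564.8, 565.1 and 645.5 CPM in M+NSPCC1. Ctrl and the aged groups did not overlap. The log2 fold change of Model against Ctrl was 5.98 ± 0.39 (SE; edgeR adjusted p = 1.6e-07), or 63.2-fold with a 95% interval of 35.1 to 113.9.

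Oca2 was close to undetected in Ctrl. Its 4 Ctrl libraries held 2 counts in all, both in Ctrl 02 (0.221 CPM), and the other 3 were at 0. In Model it had 57.7, 61.9, 21.8 and 67.3 CPM, and in M+NSPCC1 41.2, 58.0, 55.9 and 70.8 CPM. With 2218 counts in Model against 2 in Ctrl, the ratio after scaling was 965 with a 95% counting interval of 267 to 7970, which covers counting error only. The edgeR adjusted p was 2.01e-07. The interval is wide because Ctrl held so few counts.

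Trpm1 was also near the detection limit in Ctrl. It had 1.22, 0, 0.322 and 0.432 CPM in Ctrl, 204.7, 302.4, 82.0 and 306.0 CPM in Model, and 187.8, 265.5, 255.6 and 305.0 CPM in M+NSPCC1. Again no Ctrl library reached an aged one. The log2 fold change of Model against Ctrl was 8.80 ± 0.62 (SE; edgeR adjusted p = 2.88e-07), and it was 9.72 without Ctrl 01, the Ctrl library with the most Trpm1. Tyr had its highest Ctrl level in the same library, and its log2 fold change was 8.08 without it.

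Gpnmb differed from the other 4 in having a clear level in Ctrl. It had 92.7, 118.6, 77.1 and 89.5 CPM in Ctrl, 827.6, 1021, 371.2 and 1002 CPM in Model, and 552.7, 776.4, 791.8 and 784.8 CPM in M+NSPCC1. The groups did not overlap with Ctrl here either, and Model 03 was again the lowest aged library. The log2 fold change of Model against Ctrl was 3.09 ± 0.29 (SE; edgeR adjusted p = 2.27e-06), or 8.53-fold with a 95% interval of 5.47 to 13.3. Markers of macrophages, which also express Gpnmb, went the other way. Of 20 listed markers 14 were in the tables and tested, and all 14 fell, as did 41.4% of all genes tested. Together they went from 0.566% to 0.812% of the summed count in Ctrl to 0.123% to 0.363% in Model. The part of macrophages in the Gpnmb level was not tested.

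**Figure D1:**
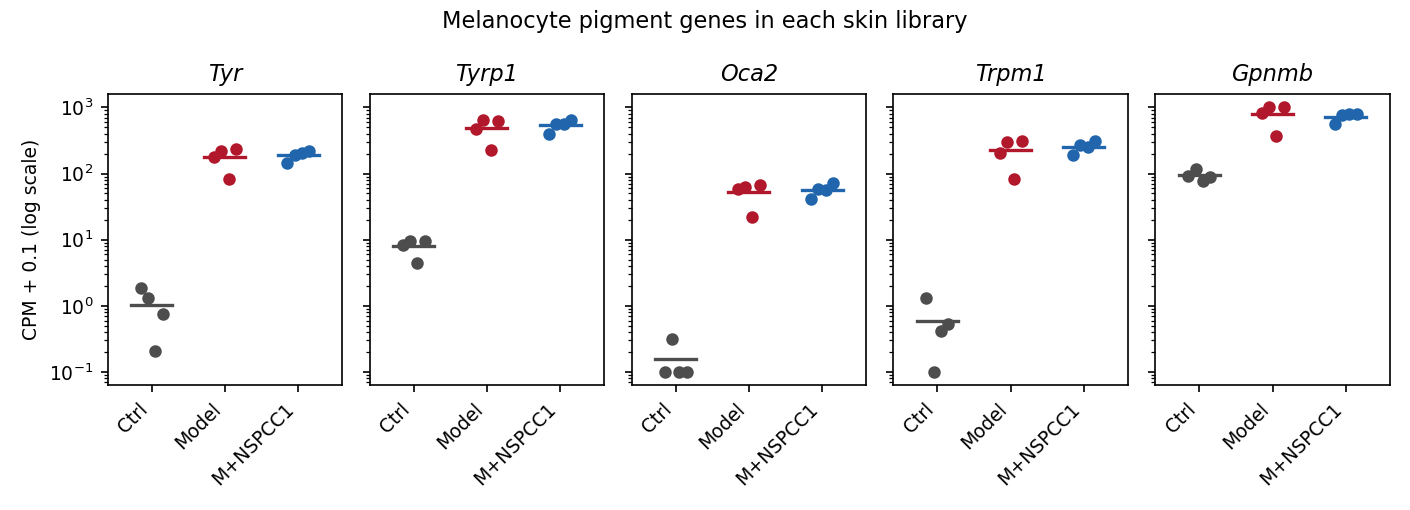
CPM plus 0.1 on a log axis for each of the 5 genes, 1 point per library and 4 libraries per group, with a bar at the group mean. In each panel all Model and M+NSPCC1 points lie above all Ctrl points, and the lowest Model point is Model 03 (83.8 CPM for Tyr, 371.2 CPM for Gpnmb).

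All 5 genes thus rose in Model, in groups that did not overlap, where 83.1% of all genes tested did not overlap either. Their median log2 fold change was 7.57, beside 0.25 over all genes tested. That overall median depends on the scaling: it was 0.08 with DESeq2's size factors and 0.43 when libraries were scaled by whole-library depth. Relative to the overall median of the edgeR fit, the log2 differences were 7.32 for Tyr, 5.73 for Tyrp1, 8.54 for Trpm1 and 2.84 for Gpnmb.

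The M+NSPCC1 libraries share the Ctrl libraries with this comparison, so they are given as values of their own. Against Ctrl, M+NSPCC1 skin was higher by a log2 fold change of 7.66 ± 0.49 for Tyr, 6.12 ± 0.39 for Tyrp1, 8.98 ± 0.62 for Trpm1 and 2.94 ± 0.29 for Gpnmb (SE; edgeR adjusted p from 1.93e-07 to 3.55e-06). The Oca2 ratio was 1040 (95% counting interval 287 to 8570). The groups did not overlap for any of the 5 genes, nor for 90.0% of all genes tested.

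Whether NSPCC1 moved the pigment genes was asked by comparing M+NSPCC1 with Model. None of the 5 passed the edgeR test, and for each gene the values of the 4 M+NSPCC1 libraries overlapped those of Model, against 4.19% of all genes that did not overlap. Mean Tyr was 179.1 ± 67.6 CPM (SD, n = 4) in Model and 189.9 ± 31.6 CPM (SD, n = 4) in M+NSPCC1, a log2 difference of 0.08 with a 95% interval from -0.61 to 0.78. For Tyrp1 the difference was 0.13 (-0.53 to 0.80), for Oca2 0.11 (-0.59 to 0.82), for Trpm1 0.18 (-0.63 to 0.99) and for Gpnmb -0.15 (-0.74 to 0.44). The adjusted p-values were 0.991 to 0.995. For Tyr the interval runs from 0.655 to 1.72 times the Model level, so the comparison does not show that the groups were alike.

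The small positive differences of 4 genes rested on 1 library. Without Model 03 they were -0.15 for Tyr, -0.10 for Tyrp1, -0.14 for Oca2 and -0.10 for Trpm1, and Gpnmb was at -0.39; no adjusted p was below 0.278 in edgeR. Model 03 also stood apart in other lists: within Model it had the lowest share of hair shaft markers (5.93%, against 7.84% to 8.85% in the other 3) and of cell division markers (0.241%, against 0.395% to 0.432%). It had the highest share of macrophage markers (0.363%, against 0.123% to 0.177%), of dermal fibroblast markers (1.62%, against 0.718% to 1.09%) and of skeletal muscle markers (2.12%, against 0.61% to 1.7%). Their part in the pigment gene levels was not tested.

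Each row of the files is a transcript, and the 5 genes had 11 of them: 4 for Tyrp1, 3 for Tyr, 2 for Oca2 and 1 each for Trpm1 and Gpnmb. All 11 rose in Model against Ctrl, where 90.9% of transcripts were called, and in M+NSPCC1 against Ctrl, where 94.8% were. None was called between M+NSPCC1 and Model, where 0% were. In Model 1 transcript carried 67.7% to 74.8% of the counts of Tyr, and 1 of Oca2 carried 91.8% to 96.1%. A longer transcript yields more counts, so a share of counts is not a share of molecules. Per unit of length (FPKM), this Tyr transcript had a mean of 12.98 in Model, beside 11.88 for another Tyr transcript. The counts of Tyrp1 were split more evenly, with 41.4% to 45.3%, 34.8% to 39.7% and 16.1% to 19.4% on its 3 main transcripts. Those 3 had mean FPKM of 51.96, 45.47 and 20.75 in Model. In M+NSPCC1 the Tyr transcript with the most counts carried 71.9% to 73.9%, at a mean of 14.59 FPKM beside 12.42 FPKM for the other. The Tyrp1 transcript with the most counts carried 39.2% to 50.2%. Both ranges of count shares overlap those of Model. How reads were shared between transcripts of a gene is the authors' estimate.

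Per unit of length, on the deposited FPKM scale, Gpnmb was the highest of the 5 in all 4 Ctrl and all 4 Model libraries and Tyrp1 was second. In Model, Gpnmb had 142.3, 172.2, 60.4 and 173.1 FPKM and Tyrp1 117.7, 155.8, 53.2 and 156.0 FPKM. Trpm1 (17.8 to 70.5 FPKM), Tyr (12.1 to 35.9 FPKM) and Oca2 (4.38 to 14.3 FPKM) followed in that order in each Model and M+NSPCC1 library. In Ctrl, where Gpnmb had 11.4 to 17.6 FPKM and Tyrp1 0.91 to 2.05 FPKM, the last 3 genes were at or below 0.24 FPKM, and in Ctrl 02 their order was Tyr, Oca2, Trpm1. The ranges of neighbours in this order overlapped in Model for each of the 4 neighbouring pairs, with Model 03 at the low end of every gene, although the order within each Model library was the same. In M+NSPCC1 the ranges of Trpm1 (42.8 to 71.4 FPKM), Tyr (21.0 to 32.7 FPKM) and Oca2 (8.71 to 15.3 FPKM) did not overlap each other.

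In M+NSPCC1 the order of the top pair was turned: Tyrp1 had 96.9, 139.8, 142.4 and 162.5 FPKM and Gpnmb 94.7, 133.8, 138.8 and 137.9 FPKM. The ratio of Tyrp1 to Gpnmb was 0.827, 0.904, 0.881 and 0.901 in Model and 1.02, 1.04, 1.03 and 1.18 in M+NSPCC1. Model 03, low for each gene alone, did not stand apart in this ratio, and the groups did not overlap. A ratio within a library does not depend on how libraries are scaled to each other.

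This ratio was noticed in the values and then all 10 ratios among the 5 genes were computed. The 4 ratios to Gpnmb were higher in M+NSPCC1 without overlap: on log2 CPM by 0.23 for Tyr, 0.28 for Tyrp1, 0.27 for Oca2 and 0.39 for Trpm1. Each had an exact two-sided permutation p of 0.0286, the smallest that 4 against 4 libraries allow, and 0.0714 after Benjamini-Hochberg adjustment over the 10 ratios, which does not pass 0.05. The other 6 ratios, among Tyr, Tyrp1, Oca2 and Trpm1, overlapped (exact permutation p from 0.171 to 0.943). The 4 ratios share Gpnmb and are not independent. For comparison, 1.5% of 7542 genes with at least 1 CPM had a ratio to Gpnmb that did not overlap between these groups.

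**Figure D2:**
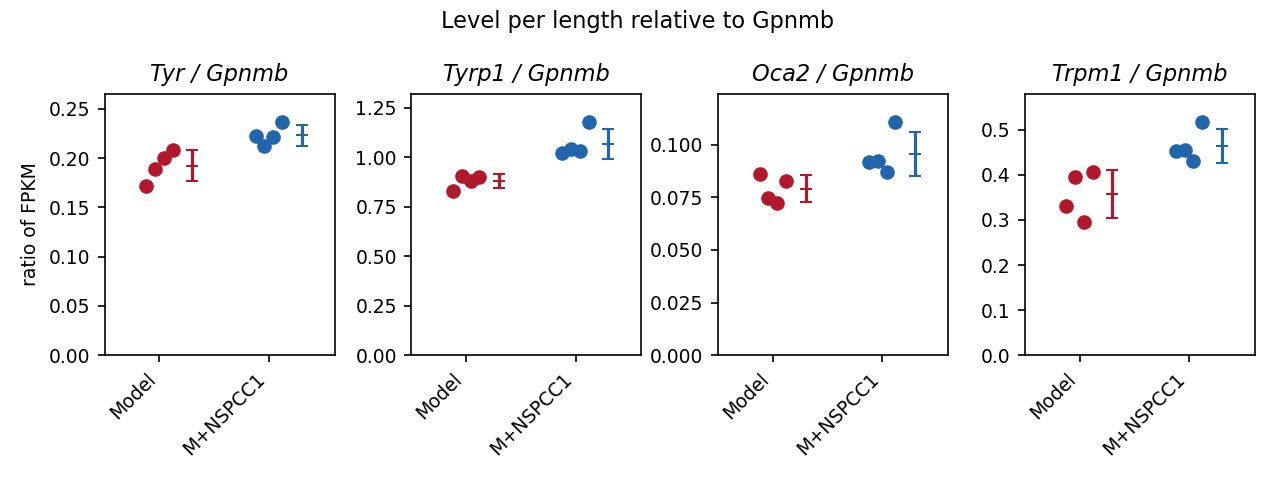
Ratio of the FPKM of Tyr, Tyrp1, Oca2 and Trpm1 to that of Gpnmb in each Model and M+NSPCC1 library, with the mean and SD of the 4 libraries at the right of each group. The M+NSPCC1 points lie above the Model points in each panel, for Tyrp1 at 1.02 to 1.18 against 0.827 to 0.904.

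The 5 genes varied together from one aged library to the next. Ctrl was left out because it forms a separate cluster, so co-variation was computed over the 8 Model and M+NSPCC1 libraries on log2 CPM. Pearson's r was 0.927 to 0.995 for the 10 pairs, and all 10 had an adjusted exact permutation p below 0.05 (0.000868 to 0.00422). Tyr and Tyrp1 had r = 0.995 and Spearman's rho = 0.905 (exact permutation adjusted p = 0.000868 and 0.00913). By rho 7 of the 10 pairs passed. The 3 that did not were Gpnmb with Tyrp1, with Oca2 and with Trpm1 (rho 0.619 to 0.667, adjusted exact permutation p 0.0923 to 0.115). As deviations from the group means, r was 0.976 to 0.995 for the 10 pairs, and 0.976 to 0.994 for those with Gpnmb. This was not recomputed without Model 03.

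Much of the co-variation over the 8 libraries rested on the 2 libraries with the lowest levels, Model 03 and M+NSPCC1 01. Without both, Tyr with Tyrp1 kept r = 0.932 (exact permutation p = 0.0153), Tyr with Trpm1 0.929 (p = 0.0125) and Tyrp1 with Trpm1 0.992 (p = 0.0139). For the pairs of Oca2 with these 3 genes r was then 0.699 to 0.716, and for the 4 pairs with Gpnmb 0.306 to 0.636, and none of these 7 relations held at an unadjusted p of 0.05. Of the 10 pairs, only the 3 among Tyr, Tyrp1 and Trpm1 kept an unadjusted p below 0.05 without those libraries. These exact permutation p-values were not adjusted over the 10 pairs, so they are weaker support than the adjusted values above.

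**Figure D3:**
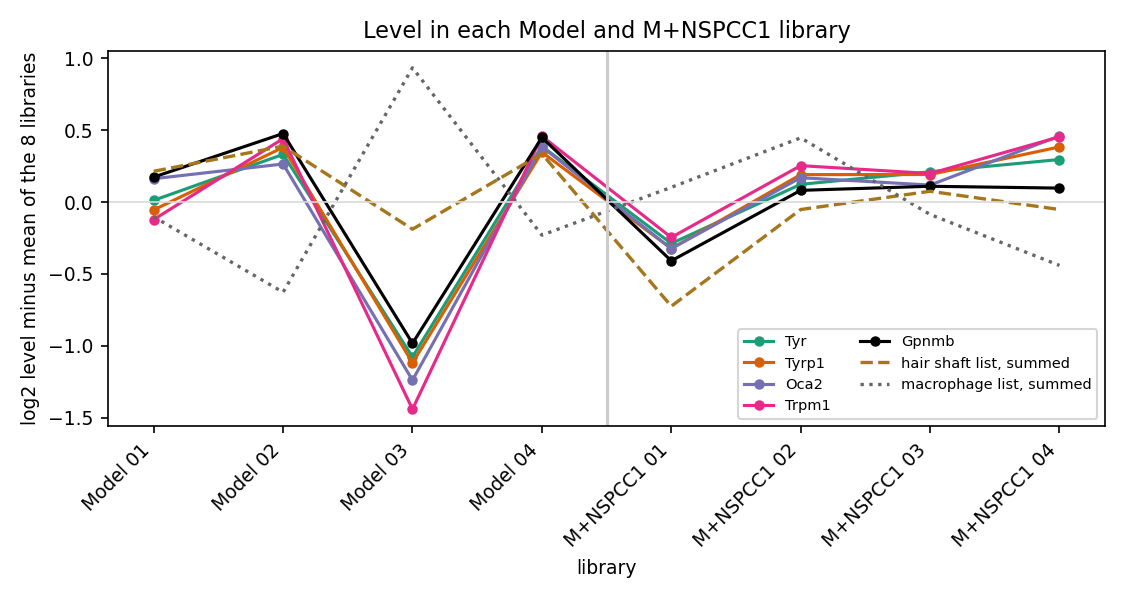
Level of each gene (log2 CPM) and of the summed hair shaft and macrophage markers (log2 share of counts) in the 8 Model and M+NSPCC1 libraries, as the difference from the mean of the 8. The 5 pigment genes follow nearly the same course, lowest in Model 03 and next lowest in M+NSPCC1 01, while the macrophage line is highest in Model 03.

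Markers of other cells in the skin moved with the pigment genes over these 8 libraries, and 11 of 25 relations of a gene with a summed list had an adjusted exact permutation p below 0.05. With the cell division markers all 5 genes had positive r (0.864 to 0.962), and with the macrophage markers negative r (-0.84 to -0.814). By Spearman's rho only Tyrp1 passed with the cell division markers (rho = 0.929, adjusted exact permutation p = 0.014). The other genes had rho 0.524 to 0.762 with them. With the macrophage markers Tyr, Tyrp1 and Gpnmb passed by rho, and Oca2 and Trpm1 did not. Gpnmb also had r = -0.832 with Schwann cell markers. With the hair shaft list r was 0.432 to 0.692 and did not pass, but by rho Gpnmb passed (rho = 0.952, adjusted exact permutation p = 0.014). Tyr, Tyrp1 and Gpnmb also passed by rho with the Schwann cell markers (-0.929, -0.833 and -0.929) and with the skeletal muscle markers (-0.905, -0.81 and -0.905). Their adjusted exact permutation p was 0.014 to 0.0495. Oca2 and Trpm1 did not pass by rho with these 3 lists. Taken within groups, as deviations from the group means, r with the hair shaft list was 0.759 to 0.816, and all 25 relations passed. Their p-values came from permuting these deviations across both groups (adjusted permutation p 0.0287 to 0.0368 for the hair shaft list). That ignores the removed group means, so these p-values are approximate and can be too small. They were not recomputed without Model 03. Without Model 03 and M+NSPCC1 01, the relation of Gpnmb to hair shaft markers had r = 0.935 (exact permutation p = 0.00278) and that to skeletal muscle markers r = -0.973. Hair shaft r for the other 4 genes was then 0.0274 to 0.369. For the 5 genes r was then 0.00694 to 0.703 with the cell division markers and -0.6 to -0.428 with the macrophage markers. No relation with either of these lists held at an unadjusted exact permutation p of 0.05. The number of relations that passed ranged from 0 to 10 when single libraries were left out: it was 0 without Model 01, without M+NSPCC1 01 or without M+NSPCC1 04, 2 without Model 03, and 4 without Model 04 or without M+NSPCC1 03.

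These lists also differed between the groups. All 27 tested hair shaft markers rose in Model against Ctrl (median log2 fold change 9.63), from 0.00297% to 0.0377% of the counts to 5.93% to 8.85%, and were at 4.09% to 7.12% in M+NSPCC1. All 28 cell division markers rose as well, while all 22 skeletal muscle markers fell. Over all genes tested, 49.1% were higher and 41.4% lower in Model than in Ctrl. Schwann cells come from the neural crest, as melanocytes do, and of their 16 listed markers 14 were tested, of which 12 fell and 2 rose. Of 17 skin epithelium markers 10 were analysed, at 0.901% to 1.21% of the counts in Ctrl, 1.28% to 1.69% in Model and 1.24% to 1.62% in M+NSPCC1. The part of these differences in the pigment gene levels was not tested.

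Among the 5 genes most like each member over the 8 libraries, the pigment lists supplied 4 for Tyr, 3 for Tyrp1, 2 for Oca2, 4 for Trpm1 and 1 for Gpnmb. For Tyr the 5 with the highest Pearson r were Pmel (0.997), Slc24a5, Tyrp1, Tmem131l and Dct. For Tyrp1 they were Fgfr1op (0.998), Mc1r, Slc24a5, Hmgb3 and Tyr. Oca2 had H2ac11 (0.994), Dct, Diaph3, Pmel and Tspan10, and Trpm1 had Taf1b (0.996), Tyrp1, Slc24a5, Dct and Tyr. Gpnmb had Ptgds (0.993), Ttyh2, Mycl, Slc24a4 and Gtf2i, of which Slc24a4 was the 1 on the pigment lists. Values of r above 0.9 were common, with 3.47% to 4.40% of 7542 genes for each member, and 9 or 10 of the 29 other pigment genes. Without Model 03, the share of all genes was 1.31% for Tyr, 0.994% for Tyrp1, 0.756% for Trpm1, 0.676% for Oca2 and 3.81% for Gpnmb. Of the 29, 8 then had r above 0.9 for Tyr, 8 for Tyrp1, 6 for Trpm1, 5 for Oca2 and 4 for Gpnmb.

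The rest of the pigment system was read from a list of 55 other genes, of which 31 were in the tables and 29 were tested. In Model against Ctrl 25 rose and 4 fell, where 49.1% of all genes tested were higher and 41.4% lower. Their median log2 fold change was 1.70, beside 0.25 over all genes. The same numbers rose and fell in M+NSPCC1 against Ctrl (median 1.75), where 50.1% of all genes tested were higher and 43.1% lower. Between M+NSPCC1 and Model none passed in edgeR (median -0.03). DESeq2 called 1, Mreg, a gene of melanosome transfer, at a log2 fold change of -0.30.

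The 3 listed genes of melanin enzymes and melanosome matrix were all tested and all rose, with a median of 6.53. Beside this role and those below, 49.1% of all genes tested were higher and 41.4% lower. Pmel, whose protein forms the fibrils on which melanin is laid down, had 1.503 to 9.72 CPM in Ctrl and 249.4 to 765.4 CPM in Model (log2 fold change 6.73 ± 0.53, SE; edgeR adjusted p = 5.81e-07). Mlana rose by 6.53 and Dct, the third enzyme of the tyrosinase family, by 5.13. Like the members, both were lowest among the Model libraries in Model 03 (34.9 CPM for Mlana, 276.9 CPM for Dct).

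Among transporters and receptors of the melanosome 6 of 9 listed genes were tested, and 5 rose and 1 fell. Slc24a5, a melanosomal cation exchanger, rose by a log2 fold change of 6.67, and Slc45a2, a transporter mutated in a form of albinism, by 6.43. Slc24a4 had no count in any Ctrl library and 11.1 to 31.7 CPM in Model, which is at least 302-fold higher than 3 counts over the Ctrl group. Gpr143, a receptor of the melanosome membrane, had 2 Ctrl counts and 613 in Model, a ratio of 267 (95% counting interval 73.5 to 2210).

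Of 11 listed regulators and receptors of the melanocyte 7 were tested, and 6 rose and 1 fell, with a median of 1.87. Mc1r, the receptor for melanocyte-stimulating hormone, rose by a log2 fold change of 6.28 ± 0.67 (SE), but Tfap2a rose by 2.39, Tfap2b by 2.24 and the stem cell factor receptor Kit by 1.27, and none of these 3 is specific to melanocytes. Mitf, named after its values were seen because it drives the pathway, rose by 1.87 ± 0.42 (SE, edgeR adjusted p = 0.00134). It had 5.50 to 8.18 CPM in Ctrl and 18.6 to 37.1 CPM in Model. In M+NSPCC1 it had 16.7, 7.97, 41.4 and 22.9 CPM. M+NSPCC1 02 thus lay within the Ctrl range of Mitf, while its Tyr level was 192.7 CPM. The part of Mitf in the pigment gene levels was not tested.

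Of 8 listed ligands that neighbouring cells supply to melanocytes only 3 were in the tables and tested. All 3 rose, where 49.1% of all genes tested were higher. Edn3, an endothelin that acts on melanocytes, rose by 1.70 and Wnt3a by 1.63. Bdnf had no count in Ctrl and 68 in the Model group, at least 19.7-fold above 3 counts over the Ctrl group.

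Genes of melanosome biogenesis and traffic, most of which work in other cells too, had the lowest median of the 5 roles, 0.72. Of 24 listed 10 were tested, and 8 rose and 2 fell. Mreg rose by 1.03, Bace2 by 0.72, Rab38 by 0.72 and Mlph, the linker that ties melanosomes to their motor, by 1.49. The 4 genes of the whole list that fell, named after their values were seen, were Mfsd12 (log2 fold change -1.73), Frzb (-1.54), Rab32 (-0.75) and Bloc1s6 (-0.38).

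**Figure D4:**
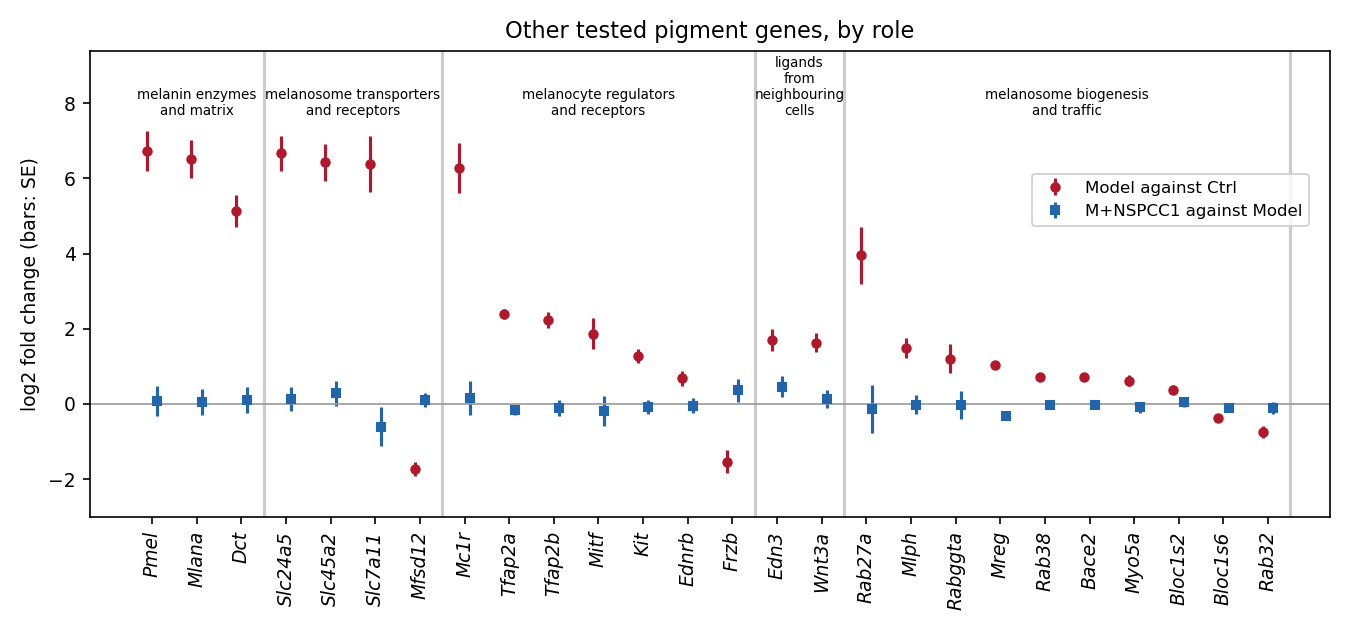
Log2 fold change with its SE for 26 of the 29 other tested pigment genes by role, in Model against Ctrl (circles) and M+NSPCC1 against Model (squares). Slc24a4, Gpr143 and Bdnf, with at most 3 counts in Ctrl, are left out. Circles reach 6.73 for Pmel and -1.73 for Mfsd12, while squares lie between -0.61 (Slc7a11) and 0.46 (Edn3).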

How the data were processed

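Total RNA from skin was extracted with TRIzol and made into messenger RNA libraries, per the labels' protocols. The authors deposited, for each of the 12 libraries, estimated counts for 10720 transcript rows and their FPKM, which corrects for transcript length and depth. HISAT2 2.2.1, RSEM 1.3.1, DESeq2 1.34.0 and the build mm10 are named in the submitters' processing notes, without roles; no source states the rule for these rows, which hold 7902 genes. Groups come from the sample titles.

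Estimated counts were summed by gene ID and rounded. The main test was edgeR 4.0.16 (R 4.3.3; quasi-likelihood, TMM, filterByExpr, all 12 libraries, a coefficient per group), with Benjamini-Hochberg adjustment over the 7638 genes tested and a threshold of 0.05. CPM uses TMM-scaled totals; log2 CPM has a prior count of 2. Summed counts per library differed by little, so depth limits only genes with a few counts. Co-variation used exact permutation of pairings over 8 libraries (SciPy 1.17.1), and ratios exact permutation of 4 against 4. Alternatives were DESeq2 1.42.0, its size factors, other filters, limma 3.58.1 on log2(FPKM + 1) and log2(FPKM + 0.1), whole-library depth, a replicate block, and leaving out each library. The scripts were tested on simulated data.

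The members and lists were chosen with earlier results of these data known. The genes named are the 5 members; in each role of the pigment list, up to 4 with the smallest p in Model against Ctrl; and the 5 genes of at least 1 CPM most like each member. Of the marker lists, that of skin epithelium had 10 of 17 genes in the tables (8 rose and 2 fell in Model), and that of dermal fibroblasts 11 of 15 (1 rose and 10 fell). Over all genes tested, 49.1% rose and 41.4% fell in Model.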

Additional observations from a re-analysis of the deposited data

Results flagged for a closer look

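Among 35 sets of 4 libraries checked (15 of CPM and 20 of ratios), 4 had 1 library far from the other 3; chance gives about 1 in 20 sets. Oca2 was at 0.2209 CPM in Ctrl 02 and at 0 in the other 3 Ctrl libraries. With the other 3 at 0, any count sets this flag, so that rate does not apply to it. The ratios share genes, so the sets are not independent. Gpnmb was at 552.7 CPM in M+NSPCC1 01, below the 776.4 to 791.8 CPM of the other 3. In M+NSPCC1 04 the FPKM ratio of Tyrp1 to Gpnmb was 1.18, above the 1.02 to 1.04 of the other 3, and that of Oca2 to Trpm1 was 0.215, also the highest of its group.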

How the results depend on the processing

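The 5 members were called in both comparisons with Ctrl, and none in M+NSPCC1 against Model, under each of the 22 alternatives, and the 22 transcript calls were the same in number under the 15 run on transcripts. The size of a fold near 0 counts depends on the scale: Oca2 in Model against Ctrl ranged from 3.46 to 12.08 (log2), the lowest with FPKM and a pseudocount of 1, the highest without Ctrl 02. Genes called between M+NSPCC1 and Model numbered 74 with DESeq2, of which 1 was another pigment gene, 2 with only the 8 libraries compared, and 0 to 4 when single libraries were left out (2 without Model 03, 4 without M+NSPCC1 01). Signs that turned were those of Tyr (-0.15), Tyrp1 (-0.10), Oca2 (-0.14) and Trpm1 (-0.10) without Model 03, and of Oca2 without M+NSPCC1 04 (-0.01). Over single left-out libraries these differences ranged from -0.15 to 0.23 for Tyr, -0.10 to 0.29 for Tyrp1, -0.14 to 0.26 for Oca2 and -0.10 to 0.37 for Trpm1. The log2 ratio of Tyr to Oca2 ranged from -0.0975 to 0.00709 and that of Tyrp1 to Oca2 from -0.0611 to 0.0515. Ratios to Gpnmb kept their sign in all (0.196 to 0.458). Relations with marker lists that passed numbered 11, but 0 with log2(FPKM + 1) and 4 with DESeq2's size factors. They numbered 0 to 10 with single libraries left out. With deviations from group means 25 passed, by a p-value that is only approximate. The cause of these changes was not tested. The same replicate number did not pair libraries (correlations -0.236 to 0.116 for 12 pairs, 2 above 0.1; 1 library correlated best with its own number). With the replicate block 3654 genes were higher and 3169 lower in Model against Ctrl and 0 differed between M+NSPCC1 and Model; no call of a member changed.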

Other observations

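Slc7a11, the cystine transporter that supplies cysteine for the reddish pheomelanin, was singled out after its values were seen. It had 2.43 CPM in Ctrl 01 and 0 in the other 3 Ctrl libraries, 43.8, 53.8, 45.1 and 61.3 CPM in Model, and 34.6, 30.5, 34.1 and 34.5 CPM in M+NSPCC1. The Model and M+NSPCC1 values did not overlap, as for 4.19% of all genes, and Model 03 was not its lowest Model library. The edgeR log2 difference of M+NSPCC1 against Model was -0.61 ± 0.52 (SE), with an adjusted p of 0.938.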
